A study of Homo sapiens with 6 samples.

Results

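Antisense long non-coding RNAs (lncRNAs) are transcripts that code for no known protein and are named after the gene on the opposite DNA strand, so that GABPB1-AS1 is the antisense transcript named after GABPB1. Here they were compared, together with their sense partners, between WT HEK 293T cells and cells of the same line labelled as a knockout of TUT4 and TUT7 (ΔTUT4/7). The antisense lncRNAs were chosen by symbol and level: genes of biotype lncRNA with a symbol ending in -AS and a number, selected on a mean count over the 6 libraries of at least 100, leaving out GNAS-AS1, OIP5-AS1, EPB41L4A-AS1 and symbols that start with HOX. This gave 186 genes of the 30270 in the count table, out of 977 with such a symbol at any count. The sense partner was the gene named before the suffix. It was in the table for 184 of the 186 (not for NPSR1-AS1 and RPARP-AS1), which made 182 distinct partners because PAXIP1 and PTOV1 each have 2 antisense genes, and 183 pairs had enough counts in both genes to be tested.

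HEK 293T is a human embryonic kidney line that carries the SV40 large T antigen. Total RNA depleted of ribosomal RNA was sequenced from 3 WT and 3 ΔTUT4/7 cultures without further treatment, and the ΔTUT4/7 cells were a previously made line received as a gift, so that each group stands for 1 line, sampled in 3 cultures. TUT4 and TUT7 (TENT3A and TENT3B) are terminal uridylyltransferases, which add uridines to the 3′ ends of RNAs and thereby mark many of them for decay, and the study asked how the transcriptome responds to their loss. The libraries held 18757228 to 33148937 estimated counts, and correlated across genes with r of 0.995 to 0.997 within a group and 0.964 to 0.965 between groups on the log2(CPM + 1) scale. The targeted genes did not both match the label: TUT4 rose from 211 ± 5.08 CPM (counts relative to the scaled library total; SD, n = 3) in WT to 906 ± 21.4, whereas TUT7 fell from 62.6 ± 2.17 to 26.3 ± 1.04 CPM. Counts summed over a gene include exons outside a deletion, but reads by exon were not examined and the cause of the rise of TUT4 was not tested. ΔTUT4/7 therefore stands throughout for the libraries labelled ΔTUT4/7. Of 8 markers of the kidney line, 7 were present in every library. VIM, KRT18 and CDH2 were higher in all ΔTUT4/7 libraries than in WT, KRT8 (7.76 to 12.6 CPM in WT and 2.65 to 3.63 in ΔTUT4/7), PAX2, LHX1 and NEFL were lower in all of them, and NEFM was at 919 to 1138 CPM in WT and at no more than 0.0492 CPM in ΔTUT4/7. The blood, endothelium and liver markers looked up were not in the table or at no more than 0.234 CPM. In such bulk RNA a lower level in every cell and loss from some cells cannot be told apart.

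Most mammalian promoters are transcribed in both directions, and the transcript that leaves upstream on the other strand is usually short-lived and kept low by the nuclear exosome, the RNA-degrading complex, with its adaptors. Antisense genes that start near the start of their partner (head-to-head) often come from such shared promoters, while those that overlap the partner's 3′ end (tail-to-tail) or lie within it have promoters of their own. Some antisense transcripts act on their partner in cis, others act elsewhere, and for most no role is known.

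The arrangement of each pair was taken from the gene coordinates. Of the 186, 78 were head-to-head with their partner, 50 tail-to-tail, 30 lay inside the sense gene and 26 held the sense gene inside them. The head-to-head set holds all 54 pairs with starts within 1000 bases of each other. The windows around the starts are shown for pairs whose starts can be seen together. There were 10 pairs with starts within 100 bases and no shared base, and in 6 of these both genes passed the test (FDR under 0.05). Each window spans 250 bases before to 50 bases after the annotated antisense start (hg38), written 5′ to 3′ on the antisense strand. Capitals mark the stretch from the annotated first base of the sense gene, which reads to the left, to that of the antisense gene, which reads to the right. In the first 4 pairs the antisense RNA fell and the sense RNA rose, and in the last 2 both fell. The windows lie at chr2:74147757-74148056 (plus strand), chr19:9620999-9621298 (plus), chr3:40309649-40309948 (minus), chr16:2752551-2752850 (minus), chr4:67700959-67701258 (plus) and chr13:45341095-45341394 (plus).
BOLA3-AS1: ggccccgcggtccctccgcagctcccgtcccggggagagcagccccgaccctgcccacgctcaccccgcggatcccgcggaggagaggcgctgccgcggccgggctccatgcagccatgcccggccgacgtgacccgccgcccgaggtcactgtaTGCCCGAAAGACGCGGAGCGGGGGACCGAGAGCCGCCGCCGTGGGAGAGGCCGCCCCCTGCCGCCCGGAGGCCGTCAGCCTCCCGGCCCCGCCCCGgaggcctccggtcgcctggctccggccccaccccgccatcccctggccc
ZNF561-AS1: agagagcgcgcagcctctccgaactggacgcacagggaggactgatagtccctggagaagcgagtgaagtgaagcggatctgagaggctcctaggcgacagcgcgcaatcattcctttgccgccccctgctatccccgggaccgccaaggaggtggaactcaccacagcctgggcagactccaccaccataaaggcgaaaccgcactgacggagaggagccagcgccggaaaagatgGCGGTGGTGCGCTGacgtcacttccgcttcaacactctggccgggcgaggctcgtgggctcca
EIF1B-AS1: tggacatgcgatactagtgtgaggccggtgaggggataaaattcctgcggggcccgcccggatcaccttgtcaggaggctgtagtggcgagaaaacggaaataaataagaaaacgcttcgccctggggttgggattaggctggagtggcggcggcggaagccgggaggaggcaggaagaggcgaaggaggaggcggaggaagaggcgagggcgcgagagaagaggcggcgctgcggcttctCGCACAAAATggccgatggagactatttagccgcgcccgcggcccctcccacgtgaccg
SRRM2-AS1: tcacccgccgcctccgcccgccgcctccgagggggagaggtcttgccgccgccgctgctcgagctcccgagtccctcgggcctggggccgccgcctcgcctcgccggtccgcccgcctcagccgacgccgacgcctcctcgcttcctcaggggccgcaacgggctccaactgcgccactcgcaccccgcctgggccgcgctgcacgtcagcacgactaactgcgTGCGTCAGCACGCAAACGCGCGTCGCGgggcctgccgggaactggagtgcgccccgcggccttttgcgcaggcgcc
UBA6-AS1: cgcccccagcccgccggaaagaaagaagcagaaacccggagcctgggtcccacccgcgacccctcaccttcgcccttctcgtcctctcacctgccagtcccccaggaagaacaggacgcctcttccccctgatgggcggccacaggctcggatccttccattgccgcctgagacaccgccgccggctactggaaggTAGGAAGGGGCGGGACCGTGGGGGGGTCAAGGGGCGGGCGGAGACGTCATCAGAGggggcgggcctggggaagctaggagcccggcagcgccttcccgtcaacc
TPT1-AS1: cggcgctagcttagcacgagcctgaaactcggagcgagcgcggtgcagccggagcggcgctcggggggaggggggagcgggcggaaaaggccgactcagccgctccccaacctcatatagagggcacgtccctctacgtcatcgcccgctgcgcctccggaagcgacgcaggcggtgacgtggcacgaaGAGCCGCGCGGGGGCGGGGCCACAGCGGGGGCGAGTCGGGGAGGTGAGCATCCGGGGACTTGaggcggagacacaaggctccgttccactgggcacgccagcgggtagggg

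The starts lay 95 bases apart in the BOLA3 pair, 13 in ZNF561, 9 in EIF1B, 26 in SRRM2, 54 in UBA6 and 61 in TPT1. All 6 windows were rich in G and C, from 62.7% for EIF1B-AS1 to 80.0% for BOLA3-AS1, and all 6 held the letters GGGCGG on either strand, the core of the box bound by SP1. CCGGAA, the core of ETS factor sites, was found in the windows of ZNF561-AS1, UBA6-AS1 and TPT1-AS1, which include both a pair that moved apart and pairs that fell together. CCAAT and TATAAA were in none of these 6 windows, which were picked by the test results of their genes. Among the pairs with close starts that were left out, UBL7-AS1, RTCA-AS1 and SRP14-AS1 also held GGGCGG. UBL7-AS1 held TATAAA, SRP14-AS1 held CCAAT, both held CCGGAA, and TRIM52-AS1 held none of these motifs. Across the same window of all 186 antisense starts, GGGCGG was held by 105 (56.5%), CCGGAA by 35 (18.8%), CCAAT by 59 (31.7%) and TATAAA by 20 (10.8%), against 45.0%, 17.2%, 34.6% and 11.5% of 35116 RefSeq promoters of the same length (GRCh38.p14). Both strands were searched and overlaps between motifs were not removed. Within the 78 head-to-head starts GGGCGG was held by 54 (69.2%) and CCGGAA by 21 (26.9%). The median number of CG dinucleotides was 24 in head-to-head windows, 20.5 in tail-to-tail windows, 14 where the sense gene lies inside and 6 for antisense genes inside their partner. A match describes the letters alone, and annotated gene starts can differ from the starts used in these cells.

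The 10 pairs with such close starts spanned a wide range of change within the pair. EIF1B-AS1 was at 6.38 ± 0.39 CPM in WT and 4.26 ± 0.46 in ΔTUT4/7 (log2 fold change -0.58 ± 0.14, SE; FDR 0.00143 in edgeR), while EIF1B, a translation initiation factor gene, rose from 48.2 ± 0.48 to 91.9 ± 5.20 CPM (0.93 ± 0.06). SRRM2-AS1 fell by 0.34 ± 0.11 beside a rise of 0.34 ± 0.05 in SRRM2, which codes for a large splicing protein. TPT1-AS1 fell from 33.6 ± 2.97 to 16.7 ± 0.35 CPM and TPT1, the gene of translationally controlled tumour protein, from 1198 ± 12.7 to 846 ± 46.8 CPM. UBA6-AS1 fell by 0.95 ± 0.10 and UBA6, a ubiquitin-activating enzyme gene, by 0.28 ± 0.05 on the log2 scale. In UBL7-AS1, RTCA-AS1 and SRP14-AS1 the antisense RNA fell by 1.78 ± 0.15, 1.53 ± 0.09 and 1.39 ± 0.16, while none of the 3 partners passed the test. TRIM52-AS1 was the exception among the 10 with a log2 fold change above 0 (0.29 ± 0.16), which did not pass the test (FDR 0.117). Of the 10, BOLA3-AS1, ZNF561-AS1, UBL7-AS1 and SRP14-AS1 had a mean count of at least 100 in WT alone, so the selection favoured their fall.

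Antisense lncRNAs were more often lower than higher in ΔTUT4/7. Of the 186, 91 were called lower (48.9%) and 40 higher (21.5%) at FDR under 0.05 in edgeR, against 57.7% called in all, 29.0% lower and 28.6% higher, among all 23952 tested genes. At a change of 2-fold or more, 38 were lower and 5 higher, against 12.4% and 5.90% of all genes. Their median log2 fold change was -0.25, with a range from -2.55 to 1.90, against a median of -0.02 over all genes. In 139 of the 186 (74.7%) the 3 WT libraries did not overlap with the 3 ΔTUT4/7 libraries, a separation found in 62.7% of all genes.

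The count limit itself bears on this balance. In 145 antisense lncRNAs the mean count was 100 or more in both groups, in 35 in WT alone and in 6 in ΔTUT4/7 alone. A gene that met the limit through 1 group was bound to have the higher mean count there, though not to be called. Of the 35, 32 were called lower and 3 were not called, and all 6 of the others were called higher. Among the 145, 59 were lower and 34 higher, 14 were at least 2-fold lower and 3 at least 2-fold higher, and the median was -0.15. Just inside the limit were KLRK1-AS1 (mean count 100.02; log2 fold change -0.29 ± 0.16) and CYP2U1-AS1 (100.18; -1.27 ± 0.18), and just outside SOX21-AS1 (99.8; -0.27 ± 0.15) and ARRDC3-AS1 (99.4; -1.22 ± 0.16).

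Other lncRNAs leaned the same way. Of 734 further lncRNAs that reached the same mean count, 42.5% were lower and 23.0% higher, with a median of -0.16. The 22 lncRNAs whose symbol ends in -DT, which marks divergent transcripts, had 13 lower and 3 higher (median -0.47), and the 75 whose symbol starts with LINC, which lie between genes, had 47 lower and 10 higher (median -0.54). Protein-coding genes of the same count leaned the other way, with 30.8% lower and 44.5% higher of 11588. Among the sense partners, 85 of the 181 tested were higher and 52 lower, 10 and 11 of them at least 2-fold, with a median of 0.18. Scaled by library size alone the partners had 71 higher and 64 lower, and with upper-quartile scaling 73 and 62. All but 1 of the 182 partners were protein-coding.

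**Figure D1:**
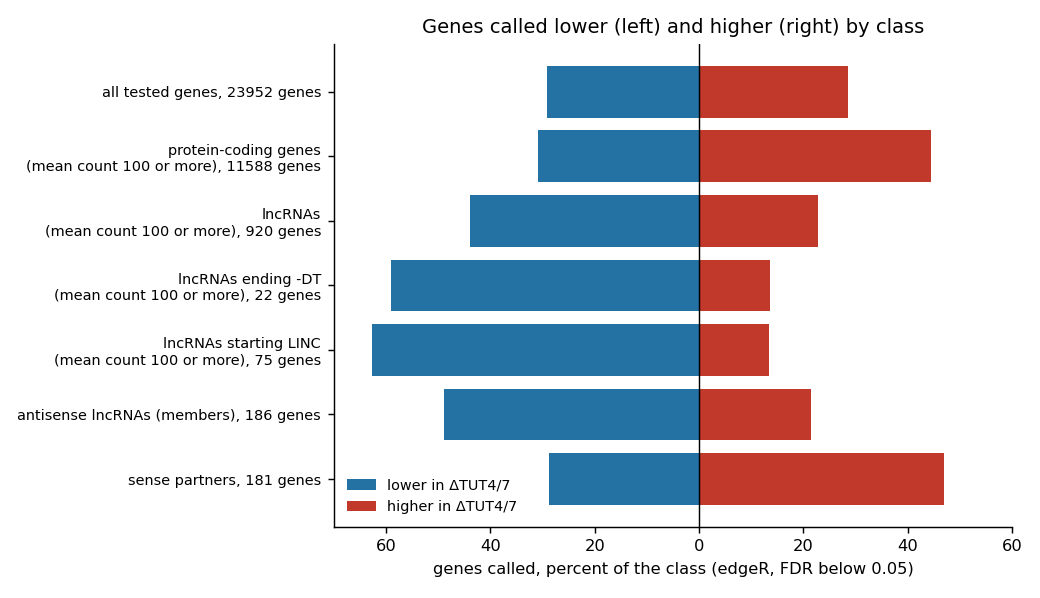
Share of genes called lower (left, blue) and higher (right, red) in ΔTUT4/7 at FDR under 0.05 in edgeR, in percent of each class; the number of genes stands beside each class. The 186 antisense lncRNAs (48.9% lower, 21.5% higher) lean the same way as the class of all 920 lncRNAs at this count, which includes them (43.8% and 22.7%). Their 181 sense partners have more higher than lower calls (85 and 52) under this scaling, against 71 and 64 with library size alone.

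The balance differed between arrangements as counted here. Head-to-head antisense lncRNAs had 51 lower and 11 higher of 78 (median -0.57), with 20 at least 2-fold lower. Tail-to-tail ones had 21 lower and 11 higher of 50 (median -0.17), and those that hold the sense gene inside them 12 lower and 5 higher of 26 (median -0.25). Antisense lncRNAs inside their partner had 6 lower and 12 higher of 30 (median 0.14), with 1 at least 2-fold lower and 0 at least 2-fold higher. The medians of the partners were 0.18, 0.20, -0.01 and 0.18 in the same order. Among antisense genes that reached the limit in both groups there were 35 lower and 10 higher of 60 head-to-head, 13 and 10 of 40 tail-to-tail, 6 and 4 of 18 with the sense gene inside, and 5 and 9 of 26 inside the sense gene. Scaled by library size alone, the antisense genes inside their partner had 10 lower and 8 higher (median 0.03) and the tail-to-tail ones 28 and 9, and with upper-quartile scaling the former had 9 and 9. These are counts over genes that share the 6 libraries, and the difference between arrangements was not tested.

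Both genes of a pair were called in 103 pairs. Both were lower in 40 pairs and both higher in 30. The antisense lncRNA was lower and the partner higher in 31 pairs (16.9% of 183), and the reverse held in 2 (1.09%), SEMA3F-AS1 and SPAG5-AS1 (the latter is named here because it is 1 of these 2). Among 471 opposite-strand pairs of another lncRNA above the limit with a protein-coding gene, these shares were 7.86% and 3.40%, and the difference was not tested. The count of 31 became 22 to 27 with each library left out in turn, 24 in DESeq2 and 31 in limma-voom. Of the 31, 20 were head-to-head, 6 tail-to-tail, 4 held the sense gene inside and 1 lay inside it. They include pairs with a partner near the floor, such as MSC-AS1 and MSC. No separate count was made for pairs with both genes above the count limit. Across the 183 pairs the log2 fold changes of antisense and sense had Pearson's r of 0.48 and Spearman's rho of 0.45. By arrangement r was 0.24 over 77 head-to-head pairs, 0.70 over 50 tail-to-tail pairs, 0.76 over 30 pairs with the antisense gene inside and 0.67 over 26 with the sense gene inside.

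**Figure D2:**
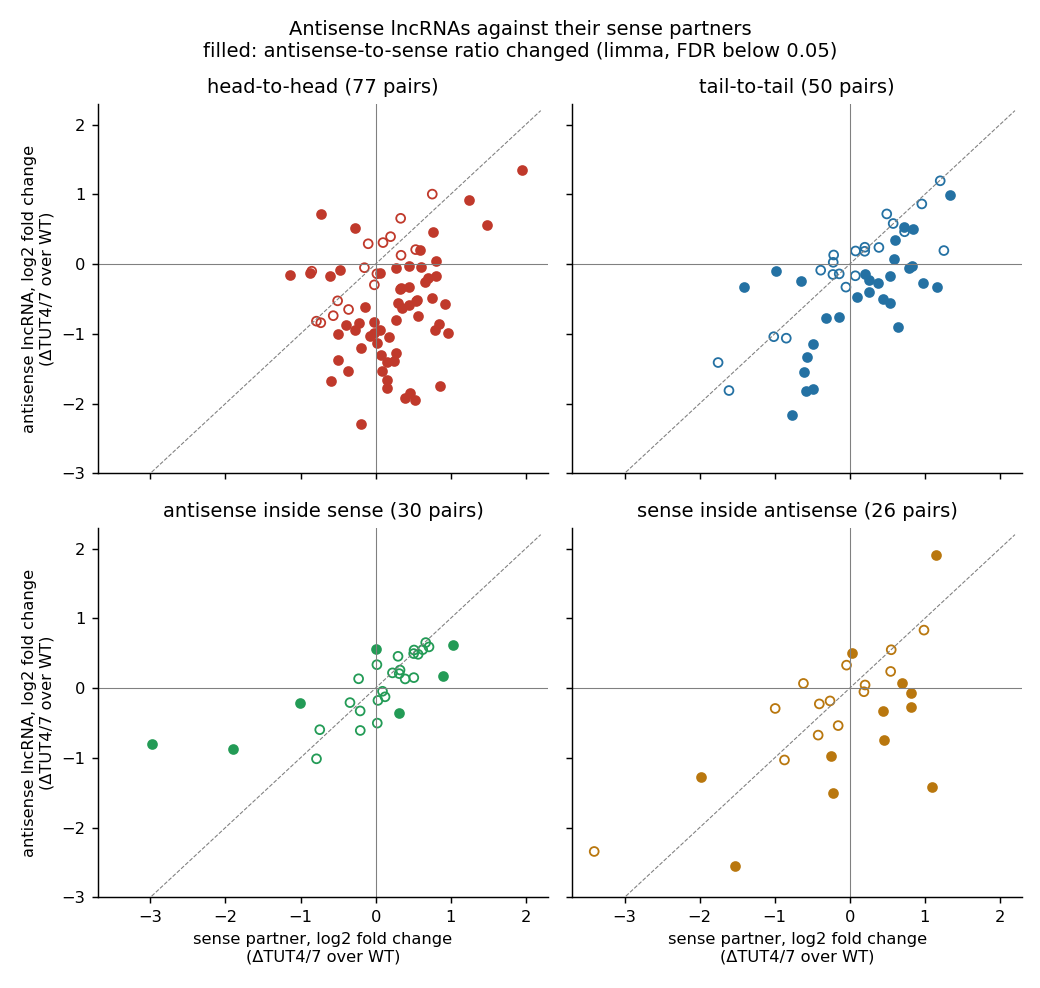
Log2 fold change (ΔTUT4/7 over WT) of each antisense lncRNA (vertical axis) against that of its sense partner (horizontal axis), 1 panel for each arrangement; the dashed line marks equal change, and filled points are pairs whose antisense-to-sense ratio passed the limma test. Head-to-head pairs lie mostly below the dashed line (r = 0.24), and antisense genes inside their partner lie along it (r = 0.76).

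Pairs share libraries, chromosomal position and, where exons overlap, bases whose reads may be counted for either gene. The strand setting of the counting was not stated in the sources used here, so reads from overlapping bases cannot be assigned with certainty. The share of the antisense exons that also belong to exons of the partner had a median of 2.17% for head-to-head pairs, 10.7% for tail-to-tail pairs, 3.16% where the sense gene lies inside and 29.5% for antisense genes inside their partner. In 67 pairs with more than 10% shared, r was 0.58 and 18 antisense genes were lower and 21 higher. In 29 pairs with no shared exon base, r was 0.49, with 21 lower and 2 higher, and in the 20 pairs that share no base at all r was 0.28, with 14 lower and 1 higher. Exon overlap was known for 172 pairs and for 12 of these 20, so the 29 do not hold all of the 20. With the nearest gene that is not the partner r was 0.29 over 186 genes, and with the median change of genes within 5 Mb on each side it was 0.42. After subtraction of that regional median from both genes, r within pairs was 0.38.

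To test the change within pairs, the log2 ratio of antisense to sense was compared in each library, which leaves out the scaling between libraries apart from the pseudocount. The ratio was lower in ΔTUT4/7 in 93 of 183 pairs (50.8%) and higher in 16 (8.74%) at FDR under 0.05 in limma, against 40.5% called in either direction among all 10139 pairs of genes on opposite strands that overlap, start within 1000 bases of each other or share a name in this way. Among 471 such pairs of a protein-coding gene with another lncRNA above the count limit, 30.8% were lower and 14.0% higher. The median ratio change over the 183 pairs was -0.35 on the log2 scale. Of the 143 pairs whose antisense gene reached the count limit in both groups, 68 had a lower and 13 a higher ratio, and of the 59 head-to-head ones among these 39 had a lower and 6 a higher one. By arrangement the ratio was lower in 55 and higher in 6 of 77 head-to-head pairs, 26 and 3 of 50 tail-to-tail pairs, 9 and 3 of 26 with the sense gene inside, and 3 and 4 of 30 with the antisense gene inside. In the 54 pairs with starts within 1000 bases, all of them head-to-head, 39 ratios were lower and 5 higher (median -0.73). In the 23 head-to-head pairs with starts further apart, 16 were lower and 1 higher (median -0.75).

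Taken library by library, the same counts gave the medians below, which describe the same pairs again. They include antisense genes that reached the count limit through WT alone, 17 of the 77 head-to-head ones, and 1 through ΔTUT4/7 alone. No such medians were taken for other lncRNA pairs, and the separation of the groups was not tested. The median log2 ratio over the 77 head-to-head pairs was -1.95, -2.05 and -2.15 in WT replicates 1, 2 and 3 and -2.77, -2.63 and -2.70 in ΔTUT4/7. Over the 50 tail-to-tail pairs it was -1.42, -1.46 and -1.45 in WT and -1.72, -1.82 and -1.73 in ΔTUT4/7. Over the 30 antisense genes inside their partner it was -3.68, -3.53 and -3.54 in WT and -3.37, -3.40 and -3.41 in ΔTUT4/7. Over the 26 pairs with the sense gene inside it was above 0 in every library, at 1.17, 1.01 and 0.97 in WT and 0.34, 0.62 and 0.55 in ΔTUT4/7. WT and ΔTUT4/7 libraries did not overlap in any of the 4 arrangements. For antisense genes inside their partner this median was higher in ΔTUT4/7, although the median of the pairs' own changes was -0.09. Per kb of exon, the partner was the more abundant RNA in WT in 131 of 172 pairs with known exon lengths, by a median over all 172 of 2.71 times.

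**Figure D3:**
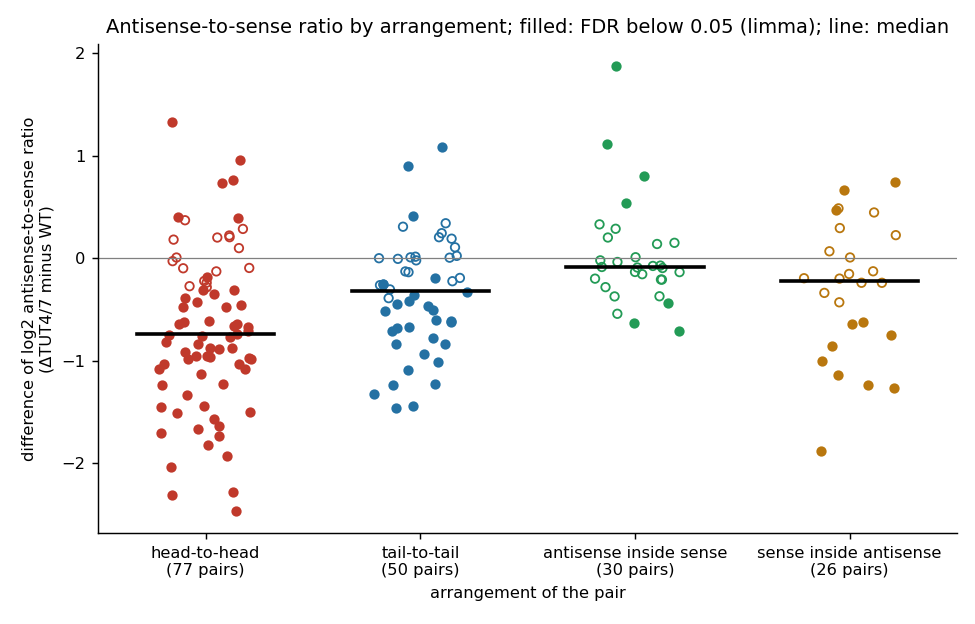
Difference of the log2 antisense-to-sense ratio (ΔTUT4/7 minus WT) for each of the 183 pairs by arrangement; filled points passed the limma test at FDR under 0.05 and black lines are medians. Most head-to-head pairs sit below 0, and pairs with the antisense gene inside the sense gene are spread about 0.

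Among head-to-head pairs the clearest changes of the ratio were those of GABPB1-AS1 and SGMS1-AS1. GABPB1 codes for a subunit of the ETS-type GA-binding protein, and GABPB1-AS1 (chromosome 15, 50354959 to 50372202, plus strand) starts 449 bases from it inside the sense gene. GABPB1-AS1 was at 113, 96.3 and 112 CPM in WT and at 29.6, 30.0 and 29.6 CPM in ΔTUT4/7, while GABPB1 was at 22.1, 23.2 and 22.7 CPM in WT and 31.1, 32.2 and 30.5 in ΔTUT4/7. All ΔTUT4/7 libraries were thus below all WT libraries for the antisense RNA and above them for the sense RNA. The log2 fold changes were -1.85 ± 0.06 (SE; FDR 9.48e-16, edgeR) and 0.46 ± 0.07 (FDR 6.05e-06), and the ratio changed by -2.28 ± 0.09 (FDR 7.42e-13, limma). SGMS1-AS1 (chromosome 10, 50623466 to 50641451, plus strand) was at 12.8, 12.8 and 12.2 CPM in WT and 3.65, 4.12 and 3.47 in ΔTUT4/7. SGMS1, a sphingomyelin synthase gene, rose from 18.8 ± 0.66 to 34.0 ± 0.79 CPM, so that the ratio changed by -2.47 ± 0.13, the largest decrease of the 183. SGMS1-AS1 reached the count limit through WT alone, so the selection itself favoured its fall, whereas GABPB1-AS1 reached it in both groups.

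BOLA3-AS1 and ZNF561-AS1, whose start windows are given above, share no base with their partners. Both, like RAP2C-AS1 below, reached the count limit through WT alone, so the selection itself favoured their fall. BOLA3-AS1 (chromosome 2, 74148007 to 74151952) was at 13.1, 14.7 and 15.2 CPM in WT and 3.49, 3.76 and 3.98 in ΔTUT4/7. BOLA3, which acts in iron-sulfur cluster assembly in mitochondria, was at 6.67, 7.54 and 8.54 CPM in WT and 11.6, 11.8 and 9.60 in ΔTUT4/7, so the antisense RNA was the more abundant of the pair in every WT library and the less abundant in every ΔTUT4/7 library. The log2 fold changes were -1.95 ± 0.12 (FDR 8.81e-12) and 0.53 ± 0.12 (FDR 0.000744) in edgeR. ZNF561-AS1 (chromosome 19, 9621249 to 9647203) fell from 11.9 ± 0.97 to 3.79 ± 0.99 CPM (-1.66 ± 0.15 on the log2 scale), beside a rise of 0.15 ± 0.05 (FDR 0.0194) in the zinc finger gene ZNF561. RAP2C-AS1 fell by 0.99 ± 0.17 beside a rise of 0.97 ± 0.05 in RAP2C, a small GTPase gene. SLC16A1-AS1 fell from 62.6 ± 2.04 to 44.8 ± 1.29 CPM while SLC16A1, which codes for the lactate carrier MCT1, rose from 295 ± 13.3 to 496 ± 19.6 CPM.

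**Figure D4:**
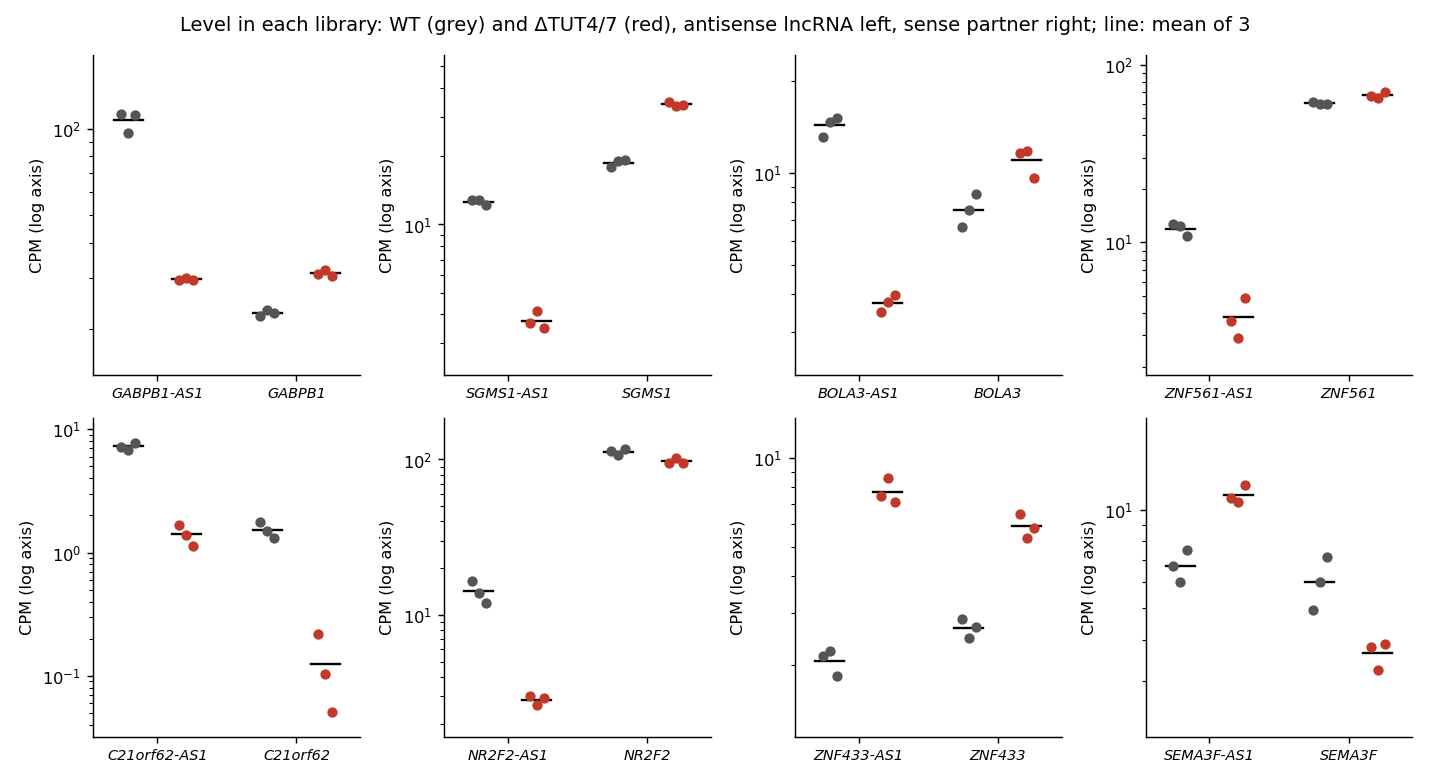
CPM in each library on a log axis for 8 pairs, WT in grey and ΔTUT4/7 in red, with the antisense lncRNA on the left and the sense partner on the right of each panel and a line at the mean of 3 libraries. In the GABPB1, SGMS1, BOLA3 and ZNF561 pairs the antisense RNA falls and the sense RNA rises, and the SEMA3F pair moves the other way. Of the 8 antisense genes, only GABPB1-AS1 and SEMA3F-AS1 reached the count limit in both groups.

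Most of the other well-studied head-to-head antisense lncRNAs fell. ZEB1-AS1 fell from 8.34 ± 1.29 to 4.27 ± 0.39 CPM, while ZEB1, a repressor that drives epithelial-mesenchymal transition, rose from 42.7 ± 2.04 to 73.7 ± 0.75 CPM, and the ratio changed by -1.66 ± 0.15 (FDR 2.65e-08, limma). TMPO-AS1 fell by 0.86 ± 0.13 and TMPO, a gene of lamina-associated proteins, rose by 0.84 ± 0.04 on the log2 scale. NNT-AS1 fell from 24.6 ± 0.26 to 12.8 ± 0.35 CPM while NNT, the mitochondrial transhydrogenase gene, did not pass the test (0.06 ± 0.05, FDR 0.247). TMEM161B-AS1, the most abundant of the 186 on average, was at 137, 140 and 135 CPM in WT and 77.4, 74.6 and 77.4 CPM in ΔTUT4/7, while its partner TMEM161B fell by 0.22 ± 0.06. LOXL1-AS1 fell by 0.80 ± 0.13, and LOXL1, a lysyl oxidase-like gene, was below 0.8 CPM in all 6 libraries. MAPKAPK5-AS1 rose with its partner, a stress-activated kinase gene, by 1.00 ± 0.09 and 0.76 ± 0.06.

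A few head-to-head pairs moved towards the antisense RNA. SEMA3F-AS1 was at 6.72, 5.999 and 7.53 CPM in WT and 10.9, 10.6 and 11.9 CPM in ΔTUT4/7. SEMA3F, a secreted axon guidance protein gene, was at 4.94, 5.999 and 7.14 CPM in WT and 3.81, 3.25 and 3.88 CPM in ΔTUT4/7, so neither gene's groups overlapped. The ratio rose by 1.33 ± 0.16 (FDR 1.41e-06, limma). In the THAP9 and MAGI2 pairs the ratio rose with a larger fall of the partner. THAP9, a gene related to a transposase, changed by -1.14 ± 0.10 and THAP9-AS1 by -0.15 ± 0.06 (FDR 0.0286). The call for THAP9-AS1 was lost in DESeq2 (0.0551) and on leaving out any of WT replicate 3, ΔTUT4/7 replicate 1 and ΔTUT4/7 replicate 3 (FDR 0.101 to 0.152). MAGI2-AS3 changed by -0.17 ± 0.05 and MAGI2, a junction scaffold gene, by -0.61 ± 0.11.

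The largest decreases of all were TMC3-AS1, C21orf62-AS1, NR2F2-AS1, BAALC-AS1, BOLA3-AS1 and LBX1-AS1. All 6 reached the count limit through WT alone, so the selection itself favoured genes higher in WT, and their values are given as a description. TMC3-AS1 (chromosome 15, 81324338 to 81518200, plus strand) was at 12.7, 14.5 and 14.0 CPM in WT and 2.25, 2.17 and 2.66 in ΔTUT4/7, a log2 fold change of -2.55 ± 0.13. C21orf62-AS1 (chromosome 21, 32772100 to 32955437, plus strand) fell by 2.34 ± 0.17, and its partner, which lies inside it, was below 1.8 CPM in WT and below 0.22 CPM in ΔTUT4/7. NR2F2-AS1 (chromosome 15, 96110040 to 96327361, minus strand) was at 16.6, 13.9 and 11.97 CPM in WT and 3.03, 2.63 and 2.91 CPM in ΔTUT4/7, whereas NR2F2, the gene of the orphan nuclear receptor COUP-TFII, changed from 112 ± 4.69 to 97.9 ± 4.25 CPM (-0.19 ± 0.05, FDR 0.00243). The partners BAALC and LBX1 were near or below 1.5 CPM and did not pass the test, while BAALC-AS1 fell by 2.16 ± 0.16 and LBX1-AS1 by 1.93 ± 0.18. DLX6-AS1, which holds the homeobox gene DLX6 inside it, fell from 21.6 ± 1.84 to 7.54 ± 0.38 CPM, and DLX6 changed by -0.22 ± 0.13 (FDR 0.135). MSC-AS1, which also reached the limit through WT alone, fell by 1.42 ± 0.16. Its partner MSC, a repressor gene of the bHLH family, was called higher (FDR 0.0206, edgeR) but was below 1 CPM in every library.

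The 5 antisense lncRNAs at least 2-fold higher were ZNF433-AS1, ATP6V0E2-AS1, LIMD1-AS1, IDI2-AS1 and MAPKAPK5-AS1, and each of the 4 with a tested partner rose with it. ZNF433-AS1 and ATP6V0E2-AS1, like RDH10-AS1 below, reached the count limit through ΔTUT4/7 alone. The selection itself thus favoured their rise, and their values are given as a description. ZNF433-AS1 (chromosome 19, 11987617 to 12046275, plus strand) was at 2.14, 2.23 and 1.83 CPM in WT and 7.46, 8.56 and 7.10 in ΔTUT4/7, and the zinc finger gene ZNF433 rose from 2.66 ± 0.20 to 5.88 ± 0.55 CPM. LIMD1-AS1 rose from 32.9 ± 1.94 to 75.4 ± 1.72 CPM and LIMD1, a LIM domain scaffold gene, from 47.2 ± 3.06 to 109 ± 5.78 CPM, changes of 1.19 ± 0.06 and 1.20 ± 0.06 on the log2 scale. In this tail-to-tail pair 69.6% of the antisense exon bases are also exon bases of the partner, so the values of both genes may rest in part on the same reads. ATP6V0E2-AS1 rose by 1.34 ± 0.13 and ATP6V0E2, a proton pump subunit gene, by 1.95 ± 0.07. IDI2-AS1 rose by 1.16 ± 0.13, and its partner IDI2 had too few counts to be tested. RDH10-AS1, next in size (0.98 ± 0.15), rose less than RDH10, a retinol dehydrogenase gene (1.34 ± 0.06).

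Tail-to-tail and nested pairs held examples of tight and of loose coupling. TTN-AS1 fell from 104 ± 7.17 to 50.4 ± 1.45 CPM and TTN, the gene of the muscle protein titin, from 220.1 ± 21.9 to 109 ± 9.43 CPM, with no change of the ratio called (-0.02 ± 0.07, FDR 0.833). In this pair 54.9% of the antisense exon bases lie in exons of TTN. FGD5-AS1 was at 84.8 ± 1.25 CPM in WT and 97.1 ± 2.92 in ΔTUT4/7 (0.19 ± 0.05, FDR 0.00164), while FGD5, the gene of an exchange factor for a small GTPase, was below 0.8 CPM. The FGD5-AS1 call was lost with library size alone (0.08, FDR 0.181), upper-quartile scaling (0.09, 0.112) and limma on log2(CPM + 1) (0.08, 0.168). PSMA3-AS1 fell by 0.50 ± 0.06 and PSMA3, a proteasome subunit gene, rose by 0.44 ± 0.06. SBF2-AS1 fell by 1.33 ± 0.12 and SBF2, a myotubularin-related gene, by 0.57 ± 0.05. MCM3AP-AS1 rose by 0.35 ± 0.06 and MCM3AP, a gene of mRNA export, by 0.60 ± 0.05. CDKN2B-AS1 fell by 0.67 ± 0.08 and CDKN2B, a cell cycle inhibitor gene, by 0.42 ± 0.09, and the ratio did not pass the test (FDR 0.108).

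In the TRHDE and MYLK pairs the ratio rose as well, with a larger fall of the sense RNA. TRHDE-AS1, which lies inside TRHDE, fell from 24.2 ± 1.71 to 13.8 ± 0.40 CPM, and TRHDE, which codes for the enzyme that degrades thyrotropin-releasing hormone, from 14.1 ± 0.71 to 1.84 ± 0.41 CPM. The ratio rose by 1.87 ± 0.16 (FDR 1.96e-08, limma), the largest increase of the 183. MYLK-AS1 changed by -0.33 ± 0.13 (FDR 0.0339), a call lost in DESeq2 (0.0980) and on leaving out any of WT replicates 2 and 3 and ΔTUT4/7 replicates 1 and 3 (FDR 0.0538 to 0.163), while MYLK, the myosin light chain kinase gene, fell by 1.42 ± 0.08. NUTM2B-AS1 rose from 65.5 ± 3.18 to 93.2 ± 4.36 CPM and its partner NUTM2B did not pass the test (FDR 0.841), but both have close copies, so their counts are uncertain. PCBP1-AS1 did not pass the test (0.07 ± 0.07, FDR 0.441), and PCBP1, an RNA-binding protein gene inside it, rose by 0.69 ± 0.05.

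The counts by chromosome are a description, and differences between chromosomes were not tested. On chromosome 15, 10 of 11 were lower and the other, USP3-AS1, did not pass the test (-0.22 ± 0.15), with a median of -1.41, against a median of -0.22 over the chromosome's genes at mean counts of at least 50. Of the 10 lower ones, 6 reached the count limit through WT alone and 4 in both groups. The regional medians around these 11 ran from -0.88 to 0.07. On chromosome 10, 10 of 15 were higher and 3 lower, with a median of 0.51 against 0.38 over the chromosome. SGMS1-AS1, LBX1-AS1 and ZEB1-AS1 were the 3 lower ones there, and all lie in regions with medians above 0 (0.43, 0.40 and 0.33). SGMS1-AS1 and LBX1-AS1 reached the count limit through WT alone, and ZEB1-AS1 in both groups. All 4 antisense lncRNAs on chromosome 11 were lower, with a median of -1.37 against 0.11 over the chromosome, and 3 of them reached the limit in both groups. Differences in copy number between the lines cannot be told apart from differences in expression in these counts.

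**Figure D5:**
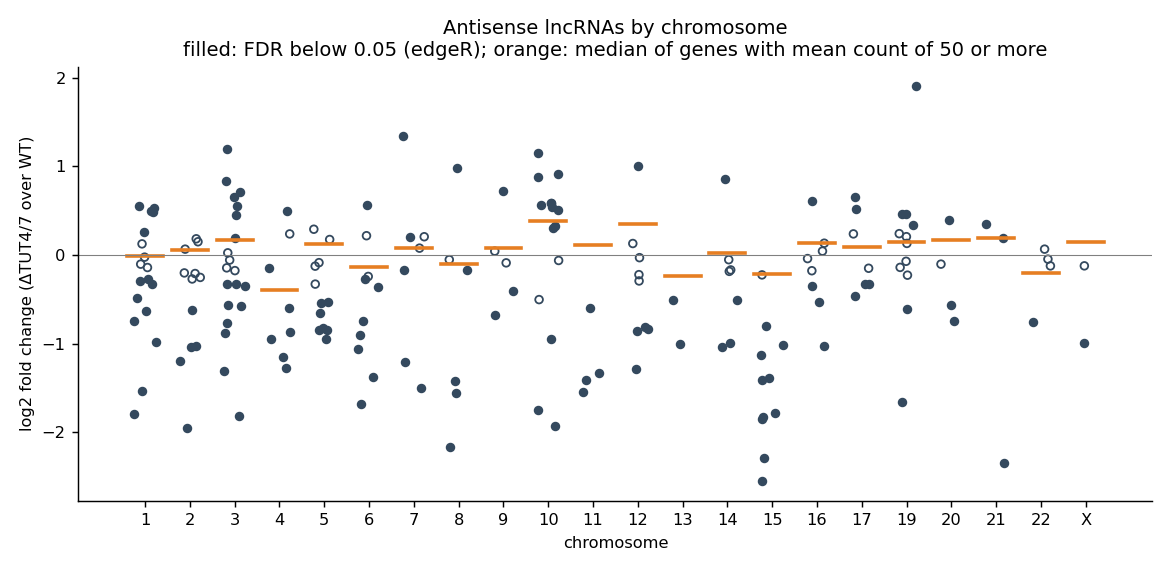
Log2 fold change (ΔTUT4/7 over WT) of the 186 antisense lncRNAs by chromosome; filled points passed the edgeR test and orange bars are the medians of the chromosome's genes at mean counts of at least 50. On chromosome 15 the median of the antisense lncRNAs (-1.41) lies below that of the chromosome (-0.22), and on chromosome 10 both lie above 0.

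The standard error of a log2 fold change had a median of 0.12 and reached 0.30, so small changes of the least abundant members were not detectable at this depth.

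Genes of nuclear RNA decay, which limit antisense and divergent transcripts, were listed separately. Of 21 genes of the exosome, its NEXT and PAXT adaptors and nuclear termination, 14 were higher, 4 lower and 3 not called, against 28.6% higher and 29.0% lower among all genes, and none changed 2-fold. Their median log2 fold change was 0.25. Of the protein-coding genes with a mean count of at least 100, 44.5% were higher and 30.8% lower, with a median of 0.10. The exosome core genes EXOSC4 and EXOSC7 rose by 0.90 ± 0.13 and 0.80 ± 0.08, and the nuclease gene DIS3 from 225 ± 6.51 to 334 ± 12.1 CPM. ZCCHC8, a NEXT subunit gene, rose by 0.61 ± 0.05, and MTREX, the helicase gene of both adaptors, by 0.28 ± 0.05. The 4 lower genes were EXOSC6 (-0.65 ± 0.06), EXOSC9 (-0.43 ± 0.06), the nuclear nuclease gene EXOSC10 (-0.24 ± 0.05) and INTS11 (-0.13 ± 0.06, FDR 0.0490), the nuclease of the Integrator complex. Any part of these genes in the levels of the antisense lncRNAs was not tested.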

How the data were processed

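Total RNA of HEK 293T cells was depleted of ribosomal RNA (VAHTS Total RNA-seq kit) and sequenced from 3 WT and 3 ΔTUT4/7 samples. The authors aligned the reads to hg38 with STAR 2.7.3a and counted Ensembl release 102 genes in Partek 10.0.22. The deposited values are estimated counts, of which 45.2% to 50.0% in a library were not whole. The authors' own table of fold changes and p-values was not used.

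Estimated counts were rounded, and 23952 genes whose largest count exceeded 12 were tested with edgeR 4.0.16 (quasi-likelihood, robust, TMM) in R 4.3.3, adjusted after Benjamini and Hochberg over all of them (FDR). Errors are standard errors of log2 fold changes or SD over 3 libraries, and p-values measure the spread between these cultures of 1 line per group. CPM use TMM-scaled library sizes. The ratio within pairs was tested with limma 3.58.1 (trend, robust) on differences of log2(CPM + 0.5), over 10139 pairs. Exon lengths came from GENCODE release 44, matched by symbol, strand and overlap for 174 of the 186 antisense genes. Only 142 had the same start and end there as in the count table. Levels per kb and shared exon bases thus rest in part on other gene models than those counted, and are approximate. Start windows were read from hg38. Both tests were tried on simulated data with changes of 2-fold or more set in genes with mean counts of at least 100. There edgeR recovered 98.5% of 200 changed genes among 22964 and limma 97.0% of 101 changed pairs among 10139. Recovery of smaller changes was not tested.

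Antisense genes, lists and tests were chosen with earlier results of these data known. Named are the 6 largest increases and decreases among called genes without overlap, the 4 highest levels, 6 pairs called in opposite directions, the 4 smallest ratio p-values in each direction, 4 genes around the count limit and a list of well-studied antisense lncRNAs. Pairs with close starts were added after their values were seen. Alternatives were other scalings, filters, DESeq2 1.42.0, limma-voom, a replicate block, other pseudocounts and each library left out. The replicate numbers were not used as pairs, since same-numbered libraries correlated at -0.02 to 0.05.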

Additional observations from a re-analysis of the deposited data

How the results depend on the processing

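For 14 counts, medians and correlations, 176 of 192 alternative values stayed within 1.5 times the count or within the spread between libraries. Counts without each library in turn ran from 83 to 90 antisense lncRNAs lower, 36 to 38 higher, 82 to 89 ratios lower and 14 to 17 higher. Requiring a mean count of 100 or more in both groups, an alternative chosen after seeing the data, left 59 lower, 14 at least 2-fold lower, 3 at least 2-fold higher and a median of -0.15. Limma on log2(CPM + 1) called 3 at least 2-fold higher. Among pairs that share no base, with the adjustment made over such pairs alone, 15 ratios were lower and 2 higher. The antisense median was -0.36 with library size alone and -0.37 after subtraction of the regional median, and the sense median 0.067 and 0.083. Without each library it ran from 0.15 to 0.18 for the partners. Library size alone moved the median of all genes by -0.11 and upper-quartile scaling by -0.10. Across pairs r was 0.28 without shared bases, 0.45 with both genes at a mean count of 100 or more and 0.38 after the regional subtraction, and rho was 0.45. The replicate block gave 89 lower, 39 higher, 93 ratios lower and 17 higher. Of 615 values for 41 named genes, 594 kept direction and call. PCBP1-AS1, not called, turned to -0.048 with library size alone, -0.034 with upper-quartile scaling and -0.045 in limma on log2(CPM + 1). KLRK1-AS1 and SOX21-AS1 were called lower under those 3. Depth limits the antisense genes near 100 counts. The causes of these shifts were not tested, apart from the smaller sets of genes or pairs.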
